A study of Homo sapiens with 8 samples.

Results

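The 9 genes described here encode variants of the core histones H2A and H3 and a set of chaperones that carry histones H3 and H4 onto DNA. They are H2AZ1, H2AZ2 and H2AX among the H2A variants, H3-3A and H3-3B, which both encode the variant H3.3, the paralogous chaperones ASF1A and ASF1B, and CHAF1A and CHAF1B, the large and middle subunits of chromatin assembly factor 1 (CAF-1). They were taken by symbol from the 58884 genes of the expression table, with 1 row each, and all 9 were among the 17194 genes with a mean of at least 10 normalized counts that were tested. The cells were C4-2, a human line descended from LNCaP that models prostate cancer resistant to androgen withdrawal. They were grown with 1 µM of DTHIB for 48 h (4 libraries) or with DMSO, its solvent, for the same time (4 libraries), and poly(A)-enriched RNA was sequenced. DTHIB, named E12 in the table, inhibits HSF1, the heat shock transcription factor, by direct action according to the labels. All 8 libraries are of this 1 line, which carries no engineered change in the labels.

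Nucleosomes are assembled along separate routes. During DNA replication, ASF1 proteins pass newly made H3-H4 pairs to CAF-1, which is held at the fork by the sliding clamp PCNA. Outside replication, variant histones are placed by dedicated machines: HIRA and the DAXX-ATRX pair deposit H3.3, and the SRCAP and EP400 complexes exchange H2A.Z into nucleosomes around promoters. H2AX is spread through chromatin and is phosphorylated beside DNA breaks. Unlike the bulk histone genes, the variant genes make polyadenylated mRNA, so they can be read in poly(A)-selected libraries; H2AX also makes a stem-loop form without a poly(A) tail, which such libraries would miss.

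Counted reads per library ranged from 27229291 to 29159387 in DTHIB and from 29499458 to 30926053 in DMSO. Luminal prostate markers were abundant in both groups, with 263517 to 269377 summed normalized counts over 9 markers in DTHIB libraries and 216149 to 220554 in DMSO libraries. Summed counts of the 4 basal markers were 26.0 to 31.3 in DTHIB and 35.1 to 52.1 in DMSO, of the 5 stromal markers 49.0 to 71.8 in DTHIB and 54.1 to 69.9 in DMSO, and of the 5 blood markers 12.5 to 14.98 in DTHIB and 26.1 to 27.8 in DMSO. The 5 neuroendocrine markers summed to 76.1 to 89.9 in DTHIB and 52.1 to 67.0 in DMSO. INSM1 was at 0 in every library, and SYP, the only one tested, rose by 0.42 (limma adjusted p = 0.0113). The basal gene KRT15 (log2 fold change -2.14, limma adjusted p = 0.00359) and the blood gene LYZ (-1.73, adjusted p = 0.000172) were lower. Their DMSO means were only 20.3 and 16.0 normalized counts. Of the 9 luminal markers 6 were higher and 3 lower at adjusted p under 0.05, against 31.0% and 33.7% of all tested genes. The basal genes KRT5 and TP63 and the leukocyte gene PTPRC averaged below 1 over the 8 libraries. PTPRC has GENCODE transcripts outside the primary assembly, and no source used here states whether reads were placed there. Its low count is therefore not taken as its level.

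The chaperones of replication-coupled assembly and H2AX were far lower in DTHIB-treated cells, while ASF1A and the H3.3 genes were close to their DMSO levels. The log2 fold change was -2.05 for ASF1B, -1.58 for H2AX, -1.39 for CHAF1B and -1.16 for CHAF1A (log2 of normalized count + 1, the scale of every fold change given here). It was -0.67 for H2AZ1, -0.58 for H2AZ2, -0.19 for H3-3B and -0.14 for H3-3A. A gene was said to fall or rise when limma gave it an adjusted p under 0.05 (Benjamini-Hochberg over all tested genes). By this rule 8 of the 9 genes fell and 0 rose, against 33.7% of all tested genes lower, 31.0% higher and 64.6% in either direction. In the same 8 genes the groups did not overlap, every DTHIB library being below every DMSO library; of all tested genes 57.9% had groups apart and 30.8% had all DTHIB libraries below. A called fall of at least 2-fold was seen in 4 of the 9, against 4.36% of tested genes. The median log2 fold change was -0.67 over the 9 genes and -0.0051 over all tested genes. ASF1A, with a log2 fold change of -0.12, did not pass (adjusted p = 0.0622). In bulk RNA, fewer cells of a kind, such as cells in S phase, and less of a transcript per cell cannot be told apart.

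**Figure D1:**
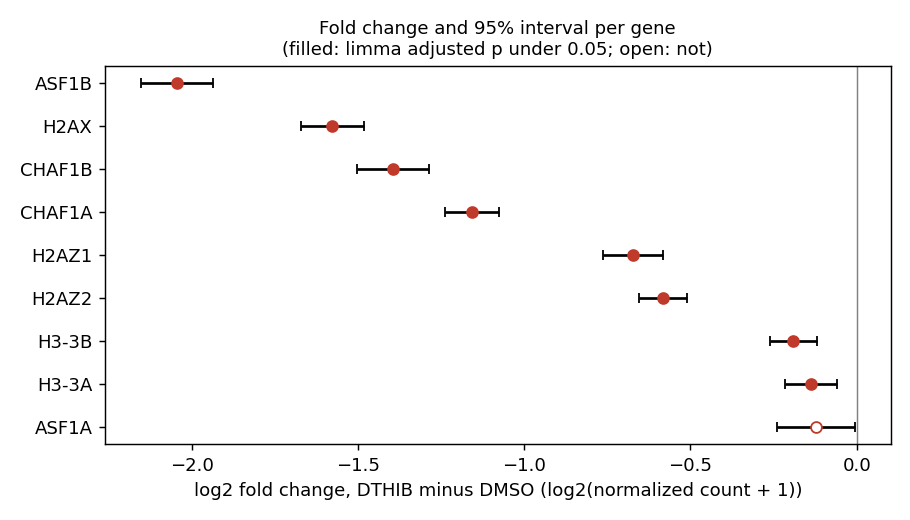
Log2 fold change of each gene, DTHIB minus DMSO, on the horizontal axis, with its 95% interval from limma (4 libraries per group). Filled points passed an adjusted p of 0.05 and the open point did not; ASF1B stands at -2.05 and ASF1A at -0.12.

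The promoters of 6 of the genes are printed to set the paralogs ASF1B and ASF1A, with fold changes of -2.05 and -0.12, beside H2AX and CHAF1A, which fell, H2AZ1, which holds the only match to the heat shock element, and H3-3B, whose level moved little. Each is the 250 bases before the RefSeq transcription start on GRCh38.p14, 5′ to 3′ on the gene's own strand, and capitals mark every match, on either strand, to the heat shock element core (TTCNNGAA or GAANNTTC), to E2F sites (TTTCCCGC, TTTGGCGC, TTTCGCGC or TTTGCCGC), to the cell cycle homology region (TTTGAA) or to the CCAAT box (CCAAT).
ASF1B (chr19:14136590-14136839, - strand): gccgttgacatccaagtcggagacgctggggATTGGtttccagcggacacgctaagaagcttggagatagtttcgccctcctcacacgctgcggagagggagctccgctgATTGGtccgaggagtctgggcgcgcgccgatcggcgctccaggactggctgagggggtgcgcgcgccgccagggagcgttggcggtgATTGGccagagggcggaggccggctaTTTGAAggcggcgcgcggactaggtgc
ASF1A (chr6:118893902-118894151, + strand): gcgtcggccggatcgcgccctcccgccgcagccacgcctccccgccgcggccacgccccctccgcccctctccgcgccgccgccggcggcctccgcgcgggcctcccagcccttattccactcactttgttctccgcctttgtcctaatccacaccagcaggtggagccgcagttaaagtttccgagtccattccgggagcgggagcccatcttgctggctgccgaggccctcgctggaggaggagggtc
H2AX (chr11:119095466-119095715, - strand): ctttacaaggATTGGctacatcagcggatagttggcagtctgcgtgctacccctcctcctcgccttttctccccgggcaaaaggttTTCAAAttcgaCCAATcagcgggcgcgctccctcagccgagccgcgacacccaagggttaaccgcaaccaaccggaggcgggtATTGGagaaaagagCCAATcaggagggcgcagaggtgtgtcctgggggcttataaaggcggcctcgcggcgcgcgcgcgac
CHAF1A (chr19:4402390-4402639, + strand): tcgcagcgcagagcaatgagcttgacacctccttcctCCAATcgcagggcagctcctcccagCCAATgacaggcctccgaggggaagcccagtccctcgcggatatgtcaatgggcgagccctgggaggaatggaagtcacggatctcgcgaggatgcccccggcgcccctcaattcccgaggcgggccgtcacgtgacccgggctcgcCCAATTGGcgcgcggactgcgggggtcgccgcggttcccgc
H2AZ1 (chr4:99950276-99950525, - strand): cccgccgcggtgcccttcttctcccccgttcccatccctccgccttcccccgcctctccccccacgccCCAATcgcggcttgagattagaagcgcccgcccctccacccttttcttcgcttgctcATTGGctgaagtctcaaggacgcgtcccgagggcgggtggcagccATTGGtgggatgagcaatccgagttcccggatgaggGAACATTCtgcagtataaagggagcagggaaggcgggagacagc
H3-3B (chr17:75779780-75780029, - strand): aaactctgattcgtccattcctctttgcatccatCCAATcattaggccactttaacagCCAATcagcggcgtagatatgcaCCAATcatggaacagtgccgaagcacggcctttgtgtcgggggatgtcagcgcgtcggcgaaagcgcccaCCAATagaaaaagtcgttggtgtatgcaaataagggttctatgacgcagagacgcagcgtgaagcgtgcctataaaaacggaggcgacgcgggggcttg

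The CCAAT box, the binding site of NF-Y, occurred at least once in 7 of the 9 genes, against 32.0% of 35116 promoters. It occurred at least 3 times in 6 of the 9 (H2AZ1, H2AZ2, H2AX, H3-3B, ASF1B and CHAF1A), against 2.93% of promoters; this minimum was chosen after the matches were seen. In CHAF1A 2 of its 4 matches overlap on opposite strands as CCAATTGG. The printed ASF1A sequence holds no match of any of these motifs, and neither does that of CHAF1B. H3-3B carries 4 CCAAT boxes and had a log2 fold change of -0.19, and CHAF1B carries none and had -1.39. A TTTGAA match lies in the ASF1B promoter, at -27 to -22 from the start, and its reverse complement in that of H2AX; 13.3% of promoters hold such a match. The heat shock element core matched once, in H2AZ1 at -44 to -37, and is found in 11.6% of promoters. None of the listed E2F letters occurred in the 9 genes' windows, and 2.79% of promoters hold them. All 9 genes had a RefSeq entry, and for H3-3A 4 start sites were searched. A gene was counted when any of its start sites held the match, while the shares of promoters count each start site. The 2 are therefore not in the same unit for H3-3A.

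ASF1B, the ASF1 paralog most tied to dividing cells, lies at chr19:14119509-14136956 on the minus strand and ASF1A at chr6:118894220-118909167 on the plus strand (GRCh38, GENCODE release 29, whole genes with exons and introns, as for all positions given). ASF1B had 541, 491, 582 and 541 normalized counts in the 4 DTHIB libraries, against 2177, 2369, 2243 and 2108 in the DMSO libraries. The groups were far apart, and the gap between them was much wider than the spread within either. Its level was 539 ± 37.4 in DTHIB and 2224 ± 111 in DMSO (SD, n = 4 in all such values), and the SE of its fold change was 0.051 (95% interval -2.15 to -1.94, limma adjusted p = 3.21e-15). Ordered from the most negative fold change, ASF1B was number 62 of 17194. ASF1A, the paralog that works with HIRA as well as with CAF-1, had 906, 896, 869.9 and 749 normalized counts in DTHIB, against 948, 936, 951 and 883 in DMSO. The groups overlapped, and DTHIB replicate 4 was the lowest library. The interval of its log2 fold change ran from -0.24 to -0.0055 (SE 0.0557), an interval not adjusted for the number of genes. Its call changed with the fit: leaving out DTHIB replicate 1, DTHIB replicate 2 or DMSO replicate 4 gave adjusted p = 0.0338, 0.0401 and 0.0421, while without DTHIB replicate 4 the log2 fold change was -0.061 (adjusted p = 0.264). Under quantile normalization it was -0.051 (adjusted p = 0.428), and the authors' deposited table has a log2 fold change of -0.12 with an adjusted p of 0.108. ASF1A shares exonic sequence with MCM9 on the opposite strand, which had a mean of 420 normalized counts in DTHIB and 393 in DMSO; no source used here states whether counting used strand, so reads of the overlap cannot be told apart.

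Because both paralogs were measured in the same library, their ratio does not depend on the library size factor. The ratio of ASF1B to ASF1A normalized counts was 0.548 to 0.722 in the DTHIB libraries and 2.30 to 2.53 in the DMSO libraries, so the more abundant transcript by count changed from one paralog to the other. Per library, the log2 ratio averaged -0.66 ± 0.18 in DTHIB and 1.26 ± 0.06 in DMSO, a difference of -1.92. A two-sided exact permutation test gave p = 0.0286, the smallest that 4 against 4 libraries allow, or 0.0571 adjusted over the 4 pairs compared, which misses 0.05. The proteins translated from their coding transcripts share 144 of 204 aligned positions (70.6%), and their transcripts share no stretch of 50 bases.

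CAF-1 fell in both of its dedicated subunits, encoded by CHAF1A at chr19:4402662-4445018 and CHAF1B at chr21:36385378-36419015, both on the plus strand. CHAF1A, the large subunit that binds PCNA, had 1138, 1108, 1188 and 1162 normalized counts in DTHIB, against 2721, 2544, 2559.6 and 2436 in DMSO. CHAF1B, the middle subunit, had 605, 578, 603 and 524 in DTHIB, against 1595, 1510.1, 1550.4 and 1419.9 in DMSO. Neither gene's groups overlapped, and the spread within a group was small beside the gap. CHAF1A was 55.2% below DMSO (SE of the log2 fold change 0.0388, limma adjusted p = 1.07e-13) and CHAF1B 62.0% below (SE 0.0517, adjusted p = 3.83e-13). The ratio of CHAF1A to CHAF1B was 1.88 to 2.22 in DTHIB libraries and 1.65 to 1.72 in DMSO libraries, a log2 difference of 0.24 without overlap (two-sided exact permutation p = 0.0286, adjusted 0.0571). RBBP4, the small CAF-1 subunit, which also serves in other chromatin complexes, averaged 10075 ± 279 normalized counts in DTHIB and 11675 ± 354 in DMSO (-0.21, a fall). PCNA fell, with a log2 fold change of -1.29, to 2757 ± 127 in DTHIB against 6746 ± 272 in DMSO. CHAF1A overlaps UBXN6 on the opposite strand, whose mean was 3166 normalized counts in DTHIB and 2817 in DMSO, and CHAF1B overlaps MORC3 on its own strand, with 1021 in DTHIB and 1059.6 in DMSO.

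**Figure D2:**
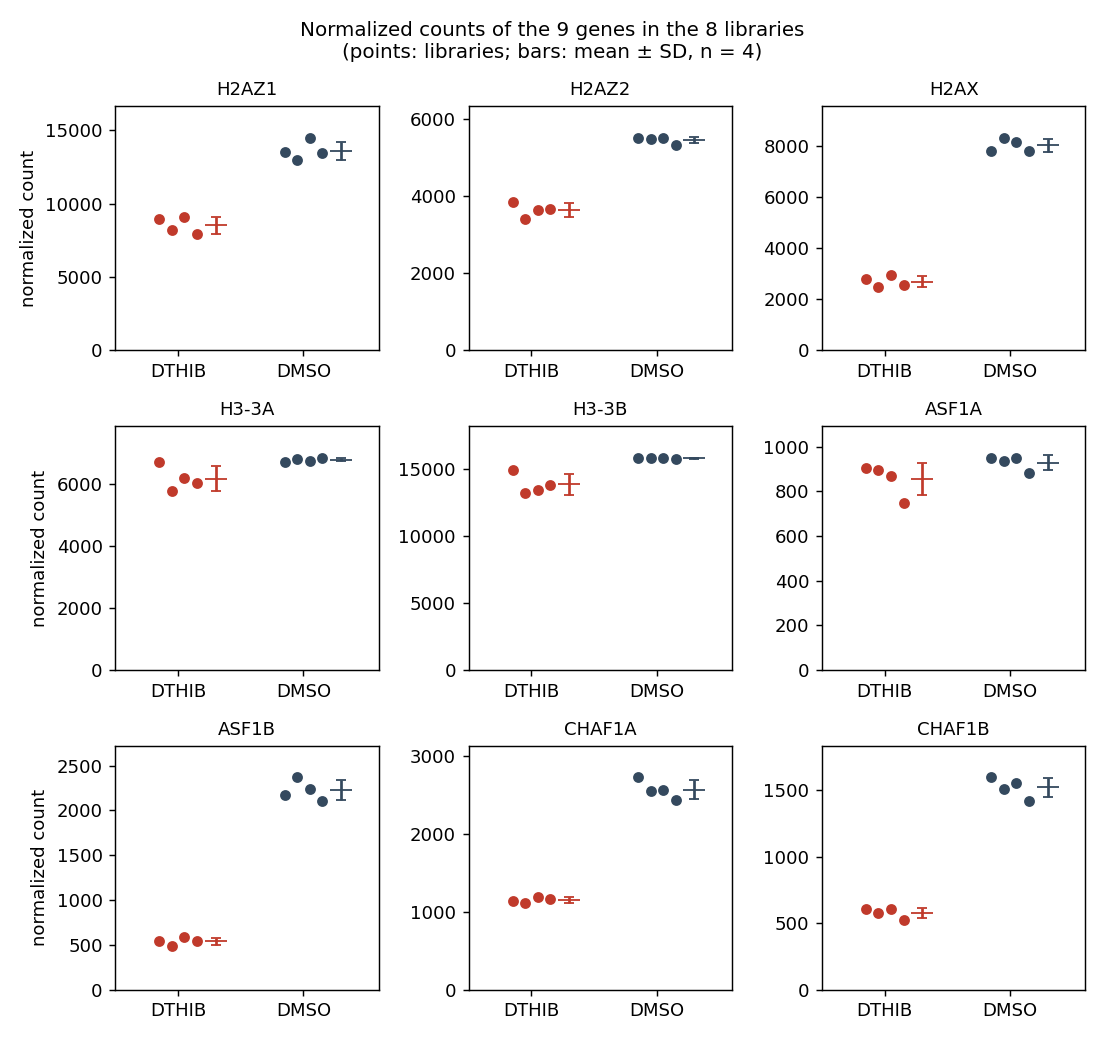
Normalized counts (vertical axes, from 0) of the 9 genes in the 4 DTHIB libraries, left in each panel, and the 4 DMSO libraries, right; points are libraries and bars the mean ± SD. Groups overlap for ASF1A, with 749 to 906 in DTHIB and 883 to 951 in DMSO, and for no other gene shown.

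H2AX, at chr11:119093854-119095467 on the minus strand, had the largest fall of the 5 variant genes. Its normalized counts were 2788, 2497, 2955 and 2557 in DTHIB, against 7832, 8328, 8175 and 7826 in DMSO. The lowest DMSO library was more than 2-fold above the highest DTHIB library. The mean was 2699 ± 212 in DTHIB and 8040.3 ± 252 in DMSO, 66.4% below (SE of the log2 fold change 0.0444, 95% interval -1.67 to -1.48, limma adjusted p = 1.41e-14). The signalling genes around H2AX moved both ways: 9 of the 12 tested (of 13, EYA1 being too low) fell and 2 rose. Of all tested genes 33.7% fell and 31.0% rose. The median of the signalling genes was -0.28 on the log2 scale, against -0.0051 over all tested genes. BRCA1, a recombination factor recruited to marked chromatin, fell to 1070.1 ± 28.1 in DTHIB against 3365 ± 131 in DMSO. The ubiquitin ligases RNF168 (-0.86) and RNF8 (-0.62), which act after H2AX phosphorylation, fell, as did the phosphatase PPM1D (-0.62). Of the kinases that phosphorylate H2AX, ATM rose by 0.58, ATR fell (-0.15, lost under quantile normalization) and PRKDC, at 0.11, did not pass. The reader of phosphorylated H2AX, MDC1, had 35.8 ± 7.7 normalized counts in DTHIB and 125 ± 18.7 in DMSO, and it is among the genes with GENCODE transcripts outside the primary assembly, and no source used here states whether reads were placed there.

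Both H2A.Z genes fell, H2AZ1 at chr4:99948086-99950388 and H2AZ2 at chr7:44826791-44848083, both on the minus strand. H2AZ1 had 8924, 8167, 9106 and 7903 normalized counts in DTHIB, against 13486, 12934, 14456 and 13440.5 in DMSO. H2AZ2 had 3864, 3423, 3651 and 3675 in DTHIB, against 5507, 5502, 5517 and 5336 in DMSO. The groups did not overlap for either gene. DTHIB levels were 37.2% below DMSO for H2AZ1 (SE of the log2 fold change 0.0431, limma adjusted p = 4.99e-10) and 33.2% below for H2AZ2 (SE 0.0343, adjusted p = 1.63e-10). The ratio of H2AZ1 to H2AZ2 was 2.15 to 2.49 in DTHIB libraries and 2.35 to 2.62 in DMSO libraries. These ranges overlapped, and the log2 difference of -0.09 did not pass (two-sided exact permutation p = 0.2, adjusted 0.2). It was -0.16 under quantile normalization (exact permutation p = 0.0571) and -0.12 to -0.05 with a library left out, the smallest without DTHIB replicate 4. The translated proteins differ at 3 of 128 positions, while the coding bases are 80.5% identical.

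The machinery that exchanges H2A.Z moved in both directions. Of 19 tested genes, subunits of the SRCAP and EP400-TIP60 complexes and the ATPase INO80, 11 fell and 5 rose. Over all tested genes 33.7% fell and 31.0% rose. The median of the 19 was -0.11, against -0.0051 for all tested genes, and their range was -0.57 to 0.37. Under quantile normalization 7 fell, and 9 fell with TMM, edgeR, DESeq2 or no filter on low values. With a library left out 9 to 12 fell. The falls of ACTR6 and VPS72 were called in 8 and 7 of 17 alternatives. The shared actin-related subunit ACTL6A (-0.57), YEATS4 (-0.48) and the ATPase RUVBL1 (-0.25) fell, while DMAP1 rose by 0.33. Of the catalytic subunits, EP400 rose to 2157 ± 141 in DTHIB against 1667 ± 93.7 in DMSO, INO80 fell by 0.13 (lost under quantile normalization), and SRCAP (0.10) and the acetyltransferase KAT5 (-0.03) did not pass. ANP32E, the chaperone that takes H2A.Z off nucleosomes, fell to 1509 ± 183 in DTHIB against 3079 ± 155 in DMSO, a log2 fold change of -1.03.

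The H3.3 genes, H3-3A at chr1:226061851-226072001 on the plus strand and H3-3B at chr17:75776434-75785893 on the minus strand, had the smallest fold changes of the 5 variant genes. H3-3A had 6705, 5757, 6189.9 and 6033 normalized counts in DTHIB, against 6720.4, 6806, 6744 and 6843 in DMSO. H3-3B had 14963, 13244, 13418 and 13842 in DTHIB, against 15855, 15807, 15824 and 15738 in DMSO. For both genes DTHIB replicate 1 lay nearest to the DMSO libraries, almost at the lowest one for H3-3A, and the DMSO libraries were much more alike than the DTHIB libraries. H3-3A was 8.95% below DMSO (95% interval of the log2 fold change -0.22 to -0.06, limma adjusted p = 0.0039). H3-3B averaged 13867 ± 773 in DTHIB and 15806 ± 49.5 in DMSO (95% interval -0.26 to -0.12, adjusted p = 9.89e-05). Under quantile normalization the H3-3A call was lost (-0.066, adjusted p = 0.0889). The ratio of H3-3A to H3-3B was 0.435 to 0.461 in DTHIB and 0.424 to 0.435 in DMSO, a log2 difference of 0.05 (two-sided exact permutation p = 0.0571, adjusted 0.0762). This difference was 0.12 under quantile normalization (exact permutation p = 0.0286) and 0.032 with each gene summed with its copies (p = 0.143 by the same exact test).

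These genes encode the same protein of 136 residues from coding sequences that are 78.4% identical, and they have retrocopies that can take their reads. The coding transcript of H3-3A shares 28.8% of its 50-base words with other annotated genes, 12 in all, and the pseudogene H3P6 holds the most, 362 of 1259. H3P6 was listed at 2121 normalized counts in DTHIB and 2484 in DMSO, and H3P16 at 647 in DTHIB and 706 in DMSO; together with the other sharing genes they equal 46.4% of the H3-3A counts. Summing H3-3A with the 9 genes that hold at least 1% of its words gave 8963 ± 486 in DTHIB and 9992 ± 98.5 in DMSO, a difference of -0.16 on the log2 scale (SE 0.0338, limma adjusted p = 0.000584), a sum added after seeing the data. H3-3B also overlaps exons of UNK on the opposite strand, which averaged 703 normalized counts in DTHIB and 778 in DMSO. H3-3B shares 8.28% of its words with H3-5, a retrocopy that kept its coding sequence, but H3-5 held counts equal to 0.588% of those of H3-3B. H2AZ2 shares 14.8% with the pseudogene H2AZ2P1, which held 0.675% of its counts.

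Levels of different genes can be compared only per transcript length. Per kilobase of coding transcript, H2AZ1 was the highest of the 9, with 8708 ± 593 normalized counts in DTHIB and 13870 ± 650 in DMSO. H2AZ2, H3-3B and H3-3A followed between 4718 and 5126 in DTHIB and between 5182 and 7268 in DMSO. In DTHIB the library ranges of these 3 overlapped. The H3-3A value leaves out counts listed under genes that share its words, which equal 46.4% of its own. Its place in this order therefore also depends on where those reads belong. H2AX was next by its mean, with 1673 ± 131 in DTHIB and 4982 ± 156 in DMSO, where its library range overlapped that of H3-3A. The chaperones were lower. ASF1A had 362 ± 30.7 in DTHIB and 393.5 ± 13.5 in DMSO, and ASF1B 262 ± 18.1 in DTHIB and 1080.3 ± 54.0 in DMSO. CHAF1A had 344 ± 10.3 in DTHIB and 768 ± 35.2 in DMSO, and CHAF1B 129 ± 8.49 in DTHIB and 339 ± 16.6 in DMSO. From the highest to the lowest, the chaperones were ordered ASF1A, CHAF1A, ASF1B and CHAF1B in DTHIB, with overlapping library ranges for ASF1A and CHAF1A, and ASF1B, CHAF1A, ASF1A and CHAF1B in DMSO. With the union of all annotated exons as the length, the order of the chaperones was as given, but among the histone genes H2AZ2 became the lowest in both groups and H2AX stood next to H2AZ1 in DMSO, so that order depends on the length used.

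**Figure D3:**
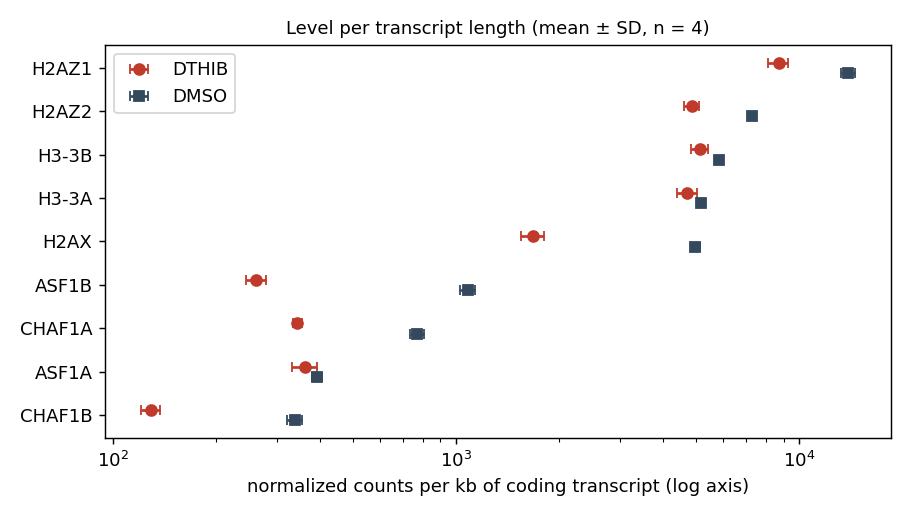
Normalized counts per kilobase of coding transcript (horizontal log axis, mean ± SD, 4 libraries per group) for DTHIB (circles) and DMSO (squares), with genes from highest to lowest in DMSO. ASF1B and ASF1A change places: 262 and 362 in DTHIB, 1080.3 and 393.5 in DMSO.

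**Figure D4:**
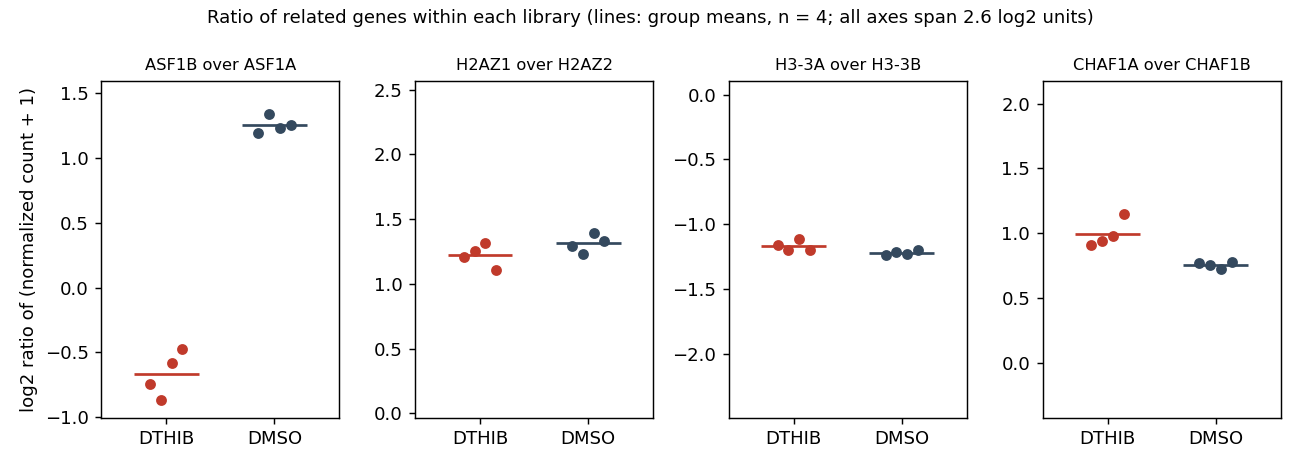
Log2 ratio of 2 related genes in each library (vertical axes, all spanning the same number of log2 units), with DTHIB left and DMSO right in each panel and lines at the group means. The ASF1B to ASF1A ratio averages -0.66 in DTHIB and 1.26 in DMSO, while the group means of the H2A.Z and H3.3 ratios differ by -0.09 and 0.05.

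Among other histone variants 6 of 7 fell and 0 rose, with a median of -0.31. Of all tested genes 33.7% fell and 31.0% rose. CENPA, the centromeric H3 variant, fell to 392 ± 46.5 in DTHIB against 1213 ± 58.1 in DMSO (-1.63), and the H2A variant H2AJ (-0.61), the linker histone H1-10 (-0.49) and MACROH2A1 (-0.31) fell as well. H3-5, at -0.19, did not pass. Of 20 H3-H4 chaperones and carriers, 15 fell and 2 rose (median -0.48), against the same 33.7% and 31.0%. HJURP, the CENPA chaperone, fell to 772 ± 49.3 in DTHIB against 2407 ± 105 in DMSO (-1.64), and MCM2, the helicase subunit that also holds parental H3-H4, fell to 1812 ± 60.4 in DTHIB against 4676 ± 161 in DMSO (-1.37). DEK (-1.10), described as a chaperone of H3.3, NASP (log2 fold change -0.90), which keeps a soluble pool of H3-H4, and HAT1 (-0.87), which acetylates new H4, also fell.

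Among the H3.3 deposition factors, HIRA had 505 ± 40.7 normalized counts in DTHIB and 566 ± 27.6 in DMSO, a called fall (-0.17) that was lost with DESeq2 and without DTHIB replicate 2, DTHIB replicate 4, DMSO replicate 1 or DMSO replicate 4. Its partner UBN1 fell (-0.35). ATRX rose to 6326 ± 353 in DTHIB against 5531 ± 175 in DMSO (0.19), a call that every alternative tried kept. UBN2 rose by 0.15 (limma adjusted p = 0.0476), which was lost with DESeq2 on recovered reads and without DTHIB replicate 2, DTHIB replicate 4, DMSO replicate 1, DMSO replicate 3 or DMSO replicate 4. CABIN1 had 2951 ± 85.1 in DTHIB and 2947 ± 81.9 in DMSO and did not pass. DAXX averaged 8.19 ± 2.36 in DTHIB and 12.9 ± 2.5 in DMSO; it, CABIN1, IPO4 and NAP1L4 have transcripts outside the primary assembly, so the low count of DAXX is not taken as its level.

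Of 9 H2A-H2B chaperones 7 fell and 1 rose (median -0.30), against 33.7% of all tested genes lower and 31.0% higher. HIRIP3 (-1.21), a partner of HIRA that binds H2A-H2B, and the FACT subunits SUPT16H and SSRP1 (-0.39 each) fell. The gene that rose, APLF, had 19.7 ± 4.55 in DTHIB and 11.9 ± 2.22 in DMSO, and its call was lost in 8 of the 16 alternatives that tested it, among them those without DTHIB replicate 1, 2 or 3 or DMSO replicate 3 or 4. Of 8 genes that supply replication-dependent histone mRNA, 6 fell and 1 rose (median -0.33), against the same shares of all tested genes. The stem-loop binding protein SLBP (-0.92), the exonuclease ERI1 (-0.77), CASP8AP2 (-0.57) and the transcription activator NPAT (-0.37) fell, and GON4L rose by 0.23.

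Cell cycle transcripts were also lower in DTHIB, where 33.7% of all tested genes fell and 31.0% rose. All 16 S phase genes fell, with a median of -1.35, and their summed normalized counts were 24695 to 27257 in DTHIB libraries and 66549 to 72772 in DMSO libraries. SLBP is in both this list and that of histone mRNA supply. All 12 G2/M genes fell as well (median -1.51), with sums of 21687 to 26824 in DTHIB and 61659 to 68224 in DMSO. ASF1B, H2AX, CHAF1B and CHAF1A had fold changes inside the range of the S phase genes, -2.35 (RRM2) to -0.79 (POLA1). H2AX, CHAF1B and CHAF1A were also inside the range of the G2/M genes, -1.74 (AURKA) to -1.09 (CENPF), and ASF1B was not. The H2A.Z genes, H3.3 genes and ASF1A lay outside these ranges. The part of the cell cycle in these falls was not tested.

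**Figure D5:**
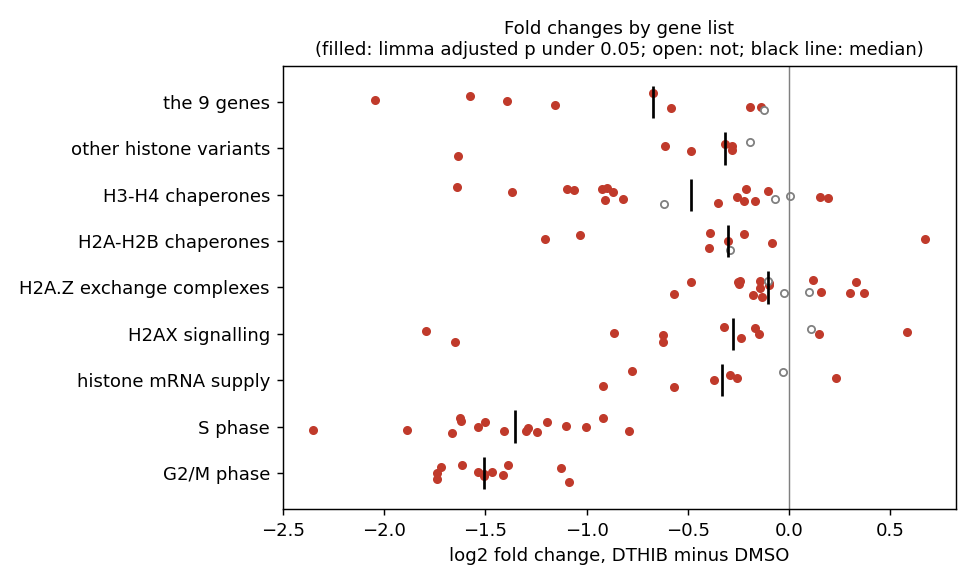
Log2 fold change, DTHIB minus DMSO (horizontal axis), of each tested gene in the 9 genes, 6 related lists and the S and G2/M phase lists; filled points passed an adjusted p of 0.05, open points did not, and black lines are medians. The medians of the S and G2/M lists are -1.35 and -1.51, and that of the H2A.Z exchange list is -0.11.

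Genes with the most similar profiles were sought among 11865 others with a symbol and a mean of at least 100 normalized counts, by the Euclidean distance between log2 values centred per gene over the 8 libraries. The nearest to ASF1B were the exonuclease EXO1 (distance 0.0962), MYBL2 and SPC24, and to H2AX the kinesin KIF20A (0.0743), FOXM1 and CENPI. CHAF1A lay nearest to TCOF1 (0.102), XRCC3 and POC1A, and CHAF1B to FBXO5 (0.106), FANCB and AUNIP. H2AZ1 lay nearest to GNB4 (0.0785), METTL7A and GCH1, and H2AZ2 to TPGS2 (0.0644), NOL11 and DNAJB1, a J-domain co-chaperone. For H3-3B the nearest was RAB5C (0.0337), for H3-3A COPZ1 (0.0546) and for ASF1A STX18-AS1 (0.117). All these distances share the same 8 libraries, so they are a description of these samples.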

How the data were processed

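RNA-seq libraries of C4-2 cells treated with DTHIB or DMSO formed 2 groups by labelled treatment. The submitters' processing notes name GRCh38 and the tools HISAT2 2.1.0, featureCounts 1.6.3, DESeq2 2.11.40.2, Trimmomatic 0.36.5 and StringTie 1.3.4. Their settings, the gene annotation and the use of strand are not stated. The authors deposited a signal for every gene and library that the file names as normalized by DESeq2, which divides reads by a size factor. The authors also deposited a DESeq2 table with the mean signal, the log2 fold change, its standard error and Wald statistic (each a score here), and, for each gene, a p-value with its adjusted form.

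In every column 100% of values were whole multiples of 1 step (tolerance 0.01), so whole reads were recovered. Symbols were found for 58472 of 58884 identifiers. GENCODE release 29 gave lengths, overlaps, shared 50-base words and translated coding sequence.

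log2(normalized count + 1) was fitted with limma 3.58.1 in R 4.3.3 (eBayes with an expression trend, two-sided, no covariates) over genes with a mean of at least 10. Fold changes on this scale understate the change of low genes. Ratios of 4 pairs of genes were compared with exact permutation tests (scipy 1.17.1). The limma, edgeR and DESeq2 fits were tried on simulated counts, and the permutation tests were not. Far fewer genes were changed in the simulation than were called here, so it does not give the error rates in these data. Nothing in the labels says that replicates were separate cultures. P-values therefore cover only how far these samples spread, and that spread may be technical. Within groups the chi-square statistic per gene was 2.39 to 5.22, against 51.8 or more between groups, so no 2 libraries agreed within sampling noise.

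Named genes are the 9 genes, up to 4 per list with the smallest adjusted p, and up to 3 nearest profiles per gene; any further gene was picked with its values in view. The genes and lists were chosen with earlier results of these data known. The alternatives changed the pseudocount (0.5, 5), the filter (none, mean of 50), the scaling (TMM, quantile), the tool (edgeR 4.0.16 or DESeq2 1.42.0 on recovered reads) or the libraries (each left out), or added a replicate block. Sums with copies were added after seeing the data.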

Additional observations from a re-analysis of the deposited data

Results flagged for a closer look

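In the DMSO group the H2AZ2 counts were 5507, 5502, 5517 and 5336, and DMSO replicate 4 stood apart from the other 3: its gap to the nearest value was 0.922 of the group's range, above Dixon's 95% critical value for 4 samples. Without that library the log2 fold change of H2AZ2 still passed. Of the values examined in this way, 9 genes and 4 ratios in 2 groups, this was the only one, and chance alone would put about 1 in 20 past the limit. DMSO replicate 4 was also the lowest DMSO library for 7 of the 9 genes, H2AZ2 included. Among the DTHIB libraries, replicate 2 was the lowest for 6 of the 9. The cause was not tested.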

How the results depend on the processing

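Across the alternatives tried, ASF1B, H2AX, CHAF1A, CHAF1B, H2AZ1, H2AZ2 and H3-3B kept a fall that passed the test. H3-3A was lost under quantile normalization (-0.066, adjusted p = 0.0889) and ranged from -0.18 to -0.066. ASF1A ranged from -0.15 to -0.05 (adjusted p = 0.0276 to 0.428) and passed with the replicate number as a block (-0.12, adjusted p = 0.0276) and without 3 single libraries, with -0.15 to -0.061 over the fits that leave out a library. No sign was seen that the replicate numbers pair the libraries, though the correlations cannot exclude a weak pairing. Deviations of same-numbered libraries correlated at -0.0715 to 0.0144, and 0 of 4 DTHIB libraries correlated best with their own number. The block called 11058 genes against 11110. Calls over all genes ranged from 9483 of 13217 tested (mean of at least 50) to 11557 of 35724 (no filter). These ends differ in how many genes were tested, which was 17194 in the main fit. Quantile normalization gave 5610 higher and 5164 lower, against 5324 and 5786. The H3-3A to H3-3B ratio passed unadjusted under quantile normalization (0.12, exact permutation p = 0.0286). With a library left out, ratios carry no test, since 3 against 4 cannot go below 0.0571. Lists kept their counts within 1.5 times except these: H3-H4 chaperones, 1 higher with DESeq2 and 1 to 2 with a library left out; H2A-H2B chaperones, 0 higher with no filter, a mean of at least 50, quantile normalization or DESeq2, and 0 to 1 with a library left out; H2A.Z exchange, 7 lower under quantile normalization. The filter at a mean of 50 removed APLF, the only H2A-H2B chaperone called higher in the main fit. The 0 at that filter is therefore not a lost call. The causes of the other changes were not tested. APLF and DAXX had means under 20 normalized counts in both groups.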
